A study of Mus musculus with 28 samples.

Results

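The acrosome genes described here are 10 genes of the sperm acrosome, Acr, Acrbp, Acrv1, Spaca1, Spaca3, Spaca4, Spaca7, Zpbp, Zpbp2 and Izumo1, of 17923 gene symbols with a transcription start of their own in the peak tables. They were chosen by name and with earlier results of these data known, so counts over them are descriptions and no test. Their peaks were all H3K27ac peaks assigned to one of these symbols, 119 of 471458, and promoter peaks were those within 1 kb of the start listed under that symbol alone. Of the 119 peaks, 66 were promoter peaks and 53 lay elsewhere. 1 further promoter peak, at Spaca4 in round spermatids, was assigned to another symbol.

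The acrosome is a secretory vesicle that the spermatid builds from the Golgi and spreads over the front of its nucleus. Its matrix holds proteases and zona-binding proteins, and its membranes carry proteins that meet the egg after the acrosome reaction. H3K27ac, acetylation of lysine 27 of histone H3, is a mark of active promoters and enhancers; it is read here at the genes and does not measure their transcripts.

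H3K27ac was profiled by ChIPmentation, in which adapters are inserted by a transposase on immunoprecipitated chromatin, in C57BL/6 mouse testis cells. Wild type (WT) and Scml2-KO (KO) Thy1+ spermatogonia and c-Kit+ spermatogonia came from postnatal day 7 (P7) mice, and KO pachytene spermatocytes (PS) and KO round spermatids (RS) came from adults; Scml2 encodes a germline Polycomb-associated protein. Each of these 6 groups had 2 H3K27ac libraries, and 16 input libraries from 8 groups were read only for peaks at the same genes; WT spermatocyte and WT spermatid H3K27ac was not analysed here. All adult H3K27ac values therefore come from Scml2-KO cells, stage goes with age between P7 and adult cells and these cannot be told apart, and the cells were enriched by magnetic sorting or sedimentation, so that fewer cells of a type and less signal per cell cannot be told apart. Nothing in the labels says that replicates came from separate animals, so p-values measure only the spread between these libraries.

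The tables gave no read totals, and the depth is unknown. Spermatogonial libraries held 17877 to 36362 peaks, adult libraries 63322 to 73316 and inputs 359 to 1192. The lowest fold enrichment that was called was 3.31 to 3.84 in spermatogonial and 3.05 to 3.25 in adult libraries, so an uncalled promoter may carry signal below those values. Replicate 1 had the higher background height and more peaks in each of the 6 H3K27ac groups. Round spermatid markers (Prm1, Tnp1, Tnp2 and Catsper3) had promoter peaks in both libraries of PS and of RS at 4 of 4 genes and in both libraries of each spermatogonial group at 0 of 4. Of 5 differentiating spermatogonia markers, only Kit was called in both libraries of the c-Kit+ groups and none in both libraries of a Thy1+ group; 2 were called in both PS and 3 in both RS libraries, Kit among them. Of 6 undifferentiated spermatogonia markers, 2 were called in each Thy1+ group, 1 in each c-Kit+ group, 4 in PS and 3 in RS. Of 6 spermatocyte markers, 6 were called in PS and in RS, 4 in Thy1+ WT and 2 or 3 in the other spermatogonial groups. Both of these lists thus had more calls in PS than in any spermatogonial group. Of 17 somatic cell markers, 11 were called in both PS libraries, 8 in both RS libraries and 2 to 5 in both libraries of a spermatogonial group. In PS these included all 5 Sertoli cell markers, and their part in the adult signal was not tested. A promoter mark does not check the knockout.

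All positions below are mm10, as in the tables. Acr (chr15:89568326-89574585, + strand), Acrbp (chr6:125049927-125063265, +), Acrv1 (chr9:36693220-36698837, +), Spaca3 (chr11:80858389-80867814, +), Spaca7 (chr8:12573049-12600738, +), Zpbp2 (chr11:98551097-98558665, +) and Izumo1 (chr7:45621811-45627242, +) start at their lower coordinate. Spaca1 (chr4:34028314-34050067, - strand), Spaca4 (chr7:45725107-45725816, -) and Zpbp (chr11:11280040-11462419, -) start at their higher coordinate. No 2 of these genes shared a promoter peak. The Acrv1 peak also lay within 1 kb of the start of 1700027I24Rik on the opposite strand, 31 bp from the Acrv1 start, in 4 libraries. In the RefSeq annotation, the Acrbp peak likewise lay within 1 kb of the start of 4930557K07Rik (74 bp from the Acrbp start), the Spaca3 peak within 1 kb of 4930507D10Rik (89 bp) and the Zpbp peak, in 5 libraries, within 1 kb of Spata48 (1325 bp). The signal of such pairs cannot be assigned to either gene.

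RefSeq promoter sequences (GRCm38.p6) matched 9 of the 10 genes; Acr was named only. The 250 bases before the start of 6 of them are printed, 5′ to 3′ on the gene's strand, because these genes span the patterns seen below: acetylated only in adult cells (Acrbp, Acrv1), already in spermatogonia (Zpbp, Zpbp2), in a single spermatogonial library (Spaca1), and most clearly in spermatids (Izumo1). Capitals mark TGACG, the core of the site bound by CREB and CREM family factors, and GTGTGT, a repeat bound by TDP-43 that has been studied in the Acrv1 promoter, on either strand (CGTCA and ACACAC when read on the other strand). The windows are chr6:125049677-125049926 (+) for Acrbp, chr9:36692970-36693219 (+) for Acrv1, chr7:45621561-45621810 (+) for Izumo1, chr4:34050068-34050317 (-) for Spaca1, chr11:11462420-11462669 (-) for Zpbp and chr11:98550847-98551096 (+) for Zpbp2.
Acrbp: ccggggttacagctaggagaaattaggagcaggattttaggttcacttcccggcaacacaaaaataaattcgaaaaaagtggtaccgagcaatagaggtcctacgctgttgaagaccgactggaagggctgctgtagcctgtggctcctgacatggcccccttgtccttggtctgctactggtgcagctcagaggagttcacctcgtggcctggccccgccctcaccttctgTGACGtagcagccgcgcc
Acrv1: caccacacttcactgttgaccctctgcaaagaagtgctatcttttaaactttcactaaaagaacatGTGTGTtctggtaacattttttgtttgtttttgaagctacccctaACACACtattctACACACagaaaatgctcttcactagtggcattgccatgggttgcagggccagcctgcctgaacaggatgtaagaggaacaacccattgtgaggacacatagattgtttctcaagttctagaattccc
Izumo1: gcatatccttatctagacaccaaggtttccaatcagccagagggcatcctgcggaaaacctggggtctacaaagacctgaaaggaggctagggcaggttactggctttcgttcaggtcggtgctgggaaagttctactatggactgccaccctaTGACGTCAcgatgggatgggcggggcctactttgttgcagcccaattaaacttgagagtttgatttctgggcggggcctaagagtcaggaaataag
Spaca1: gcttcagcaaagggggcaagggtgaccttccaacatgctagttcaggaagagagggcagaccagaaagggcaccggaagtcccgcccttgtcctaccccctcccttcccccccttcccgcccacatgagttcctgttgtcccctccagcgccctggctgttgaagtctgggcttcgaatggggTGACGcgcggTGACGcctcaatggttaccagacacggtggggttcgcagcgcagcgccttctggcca
Zpbp: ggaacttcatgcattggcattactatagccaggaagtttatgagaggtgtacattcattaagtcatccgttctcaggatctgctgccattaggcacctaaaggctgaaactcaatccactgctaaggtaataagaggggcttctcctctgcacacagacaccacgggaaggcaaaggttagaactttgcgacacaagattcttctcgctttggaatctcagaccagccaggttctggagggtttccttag
Zpbp2: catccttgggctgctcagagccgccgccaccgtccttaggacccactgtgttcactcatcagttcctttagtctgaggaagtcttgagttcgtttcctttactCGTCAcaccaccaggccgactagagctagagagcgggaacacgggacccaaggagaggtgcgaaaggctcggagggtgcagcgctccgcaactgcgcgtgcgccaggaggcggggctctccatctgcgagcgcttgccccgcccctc

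Positions in these windows count back from the start, with -1 the base before it, and give the leftmost base of a match. Izumo1 held the full palindrome TGACGTCA at -96, found on either strand in 1.55% of 32851 RefSeq promoter windows of the same length; its 2 overlapping TGACG matches lie within it. TGACG also stood at -18 in Acrbp, at -67 and -57 in Spaca1, at -88 in Spaca3 and, on the other strand, at -147 in Zpbp2. In all, 5 of the 9 matched genes held TGACG, beside 17.8% of all windows. Acrv1 held GTGTGT at -184 and its complement at -139 and -127, and Spaca7 held the complement at -173; 14.9% of all windows hold this motif. TATAAA was found only in Spaca7 among the 9, beside 12.4% of all windows. CpG dinucleotides numbered 19 in Zpbp2, 13 in Spaca1, 11 in Acrbp, 7 in Izumo1, 5 in Spaca3 and Spaca4, 4 in Zpbp, 1 in Spaca7 and 0 in Acrv1, with a median of 6 over all windows. The 2 genes with promoter peaks in most spermatogonial libraries thus had very different windows, CpG-rich in Zpbp2 and below the median in Zpbp. A single peak spanned the whole printed window in all 4 adult libraries for Acrbp and Zpbp, in 3 of 4 for Acrv1, Spaca1 and Zpbp2, and in 1 for Izumo1. These matches are descriptions of letters and show no binding.

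Acetylation of the acrosome gene promoters was largely a feature of the adult cells. All 10 genes had a promoter peak in both RS libraries, beside 71.2% of all symbols. In both PS libraries 7 of 10 were called, beside 72.2%. PS replicate 1 held all 10 and PS replicate 2 lacked Spaca3, Spaca7 and Izumo1, so without PS replicate 2 the count was 10. The spermatogonial libraries held 1 to 3 of the 10, although each had a peak at 55.5% to 68.0% of all promoters. Only Spaca1, Zpbp and Zpbp2 were called in at least 1 of the 8 spermatogonial libraries, beside 70.9% of all symbols. No input had a promoter peak at any of the 10 genes.

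**Figure D1:**
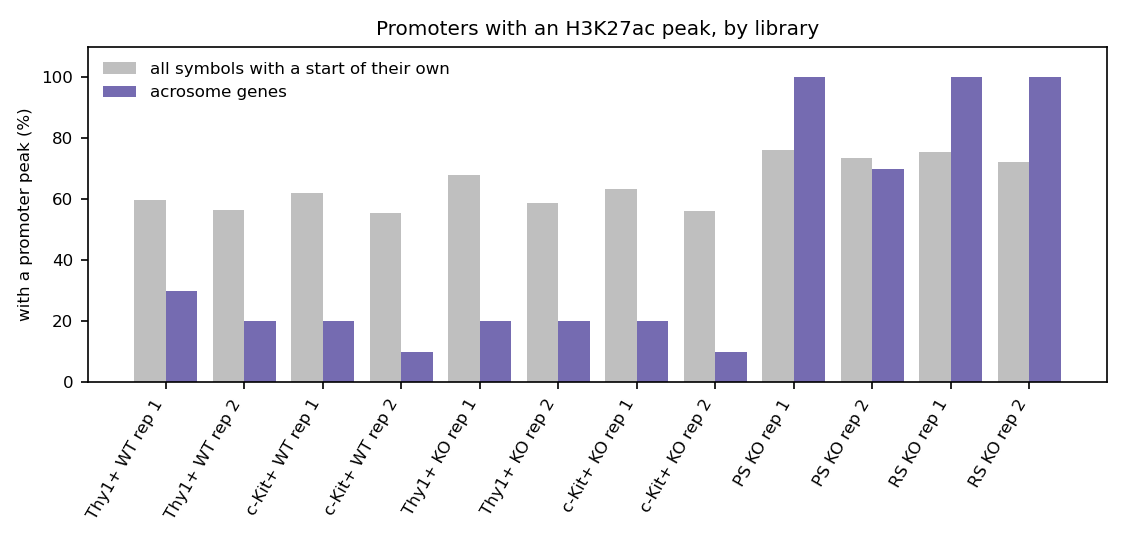
Percent of promoters with an H3K27ac peak (vertical axis) in each of the 12 libraries, for all 17923 symbols (grey) and the 10 acrosome genes (purple). The acrosome genes fall below the grey bars in all 8 spermatogonial libraries and stand at 10 of 10 genes in 3 of the 4 adult libraries.

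Called in all 4 adult libraries and in none of the 8 spermatogonial ones were 4 of the 10, Acr, Acrbp, Acrv1 and Spaca4, beside 5.82% of all symbols. Without PS replicate 2, Spaca3, Spaca7 and Izumo1 joined them and the count was 7. When each library was held to its 17877 strongest peaks, so that peak number no longer differed, the pattern held for Acr, Acrbp and Spaca4 and for 2.79% of all symbols. The same 3 genes kept it when only peaks with a −log10 q of at least 5 were used. Levels below are fold enrichment at the highest summit within a promoter peak, which is not scaled by gene or peak length.

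**Figure D2:**
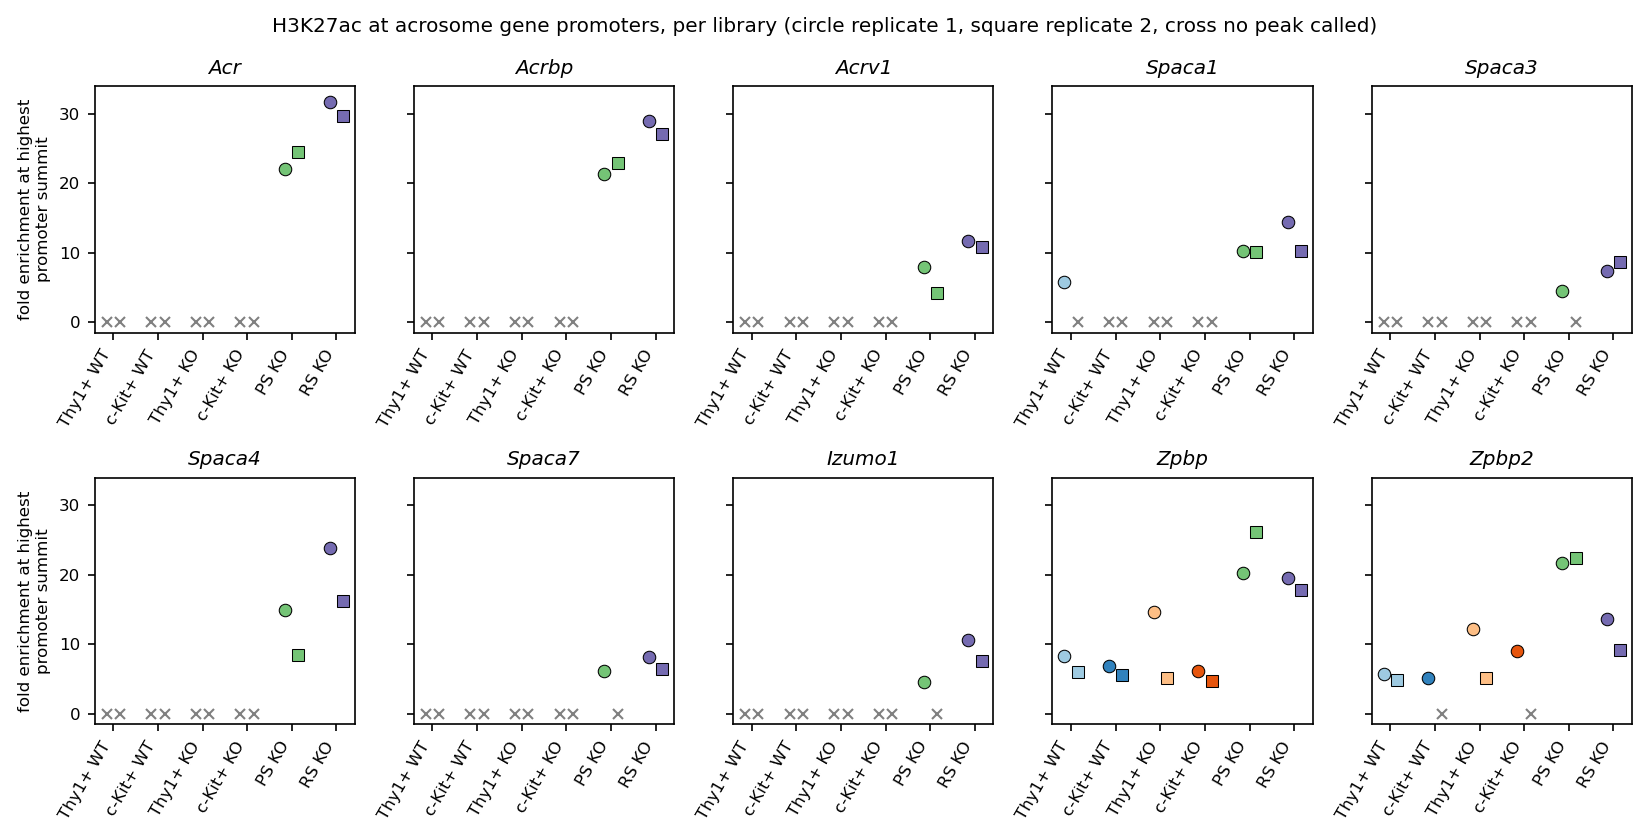
Fold enrichment at the highest promoter summit (vertical axis) of each acrosome gene in the 12 H3K27ac libraries, by group; circles are replicate 1, squares replicate 2, and crosses at 0 mark libraries with no peak called, not a measured 0. Acr and Acrbp reach the highest values, 31.7 and 28.9, in RS, and Zpbp and Zpbp2 carry peaks in spermatogonia and are higher in PS than in RS.

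Acr encodes acrosin, the serine protease that is stored in the acrosome as proacrosin. Its promoter had a fold enrichment of 22.1 and 24.5 in PS and of 31.7 and 29.8 in RS. Acrbp encodes the proacrosin-binding protein, which holds the zymogen in the acrosomal matrix and controls its processing. Its values were 21.4 and 22.9 in PS and 28.9 and 27 in RS. Both RS libraries lay above both PS libraries for each gene, and no spermatogonial library had a peak at either. Means were 23.3 ± 1.70 in PS and 30.7 ± 1.36 in RS for Acr (SD, n = 2), and 22.1 ± 1.11 and 28 ± 1.34 for Acrbp.

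Among all called promoters, Acr stood at percentiles 70.8 and 72.0 in PS and 97.0 and 97.3 in RS. Acrbp stood at 68.0 and 67.5 in PS and at 94.3 and 95.1 in RS. The promoters of the protease and its binding partner were thus among the most enriched of the spermatid libraries. The Acrbp peak is shared with 4930557K07Rik. In the RefSeq annotation the region merged over the libraries also overlaps Ing4 at Acrbp and Gm36221 at Acr. The peaks at Acr and Acrbp were also wide. At Acr the promoter peak measured 2783 and 1665 bp in PS and 4761 and 3460 bp in RS. At Acrbp it measured 3282 and 1956 bp in PS and 4606 and 4448 bp in RS, and in RS both genes exceeded the longest PS value. The median length of the highest promoter peak over the 10 genes was 1456 bp in adult libraries and 574 bp in the spermatogonial libraries with a peak. These lengths also move with background height, which was higher in replicate 1 of both adult groups (1.62 and 1.56, against 0.876 and 0.849 in replicate 2 of PS and RS); its part was not tested.

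**Figure D3:**
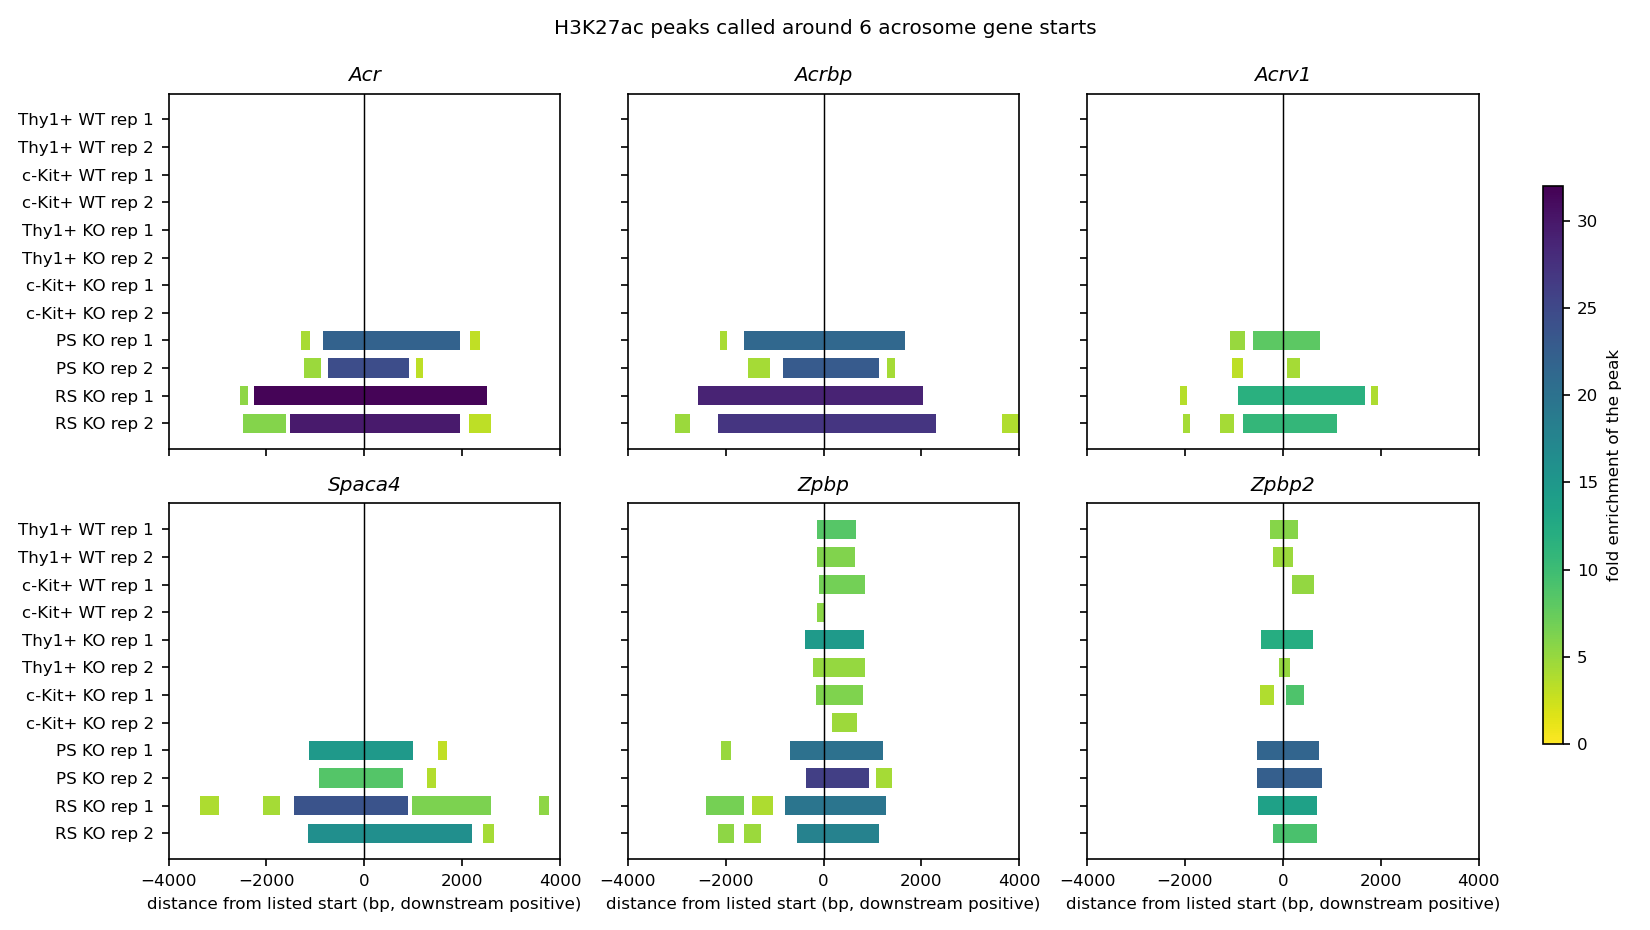
Promoter-side peaks of 6 acrosome genes in the 12 libraries (rows), drawn to scale by distance from the listed start (horizontal axis, bp, downstream positive) and coloured by fold enrichment. Acr, Acrbp, Acrv1 and Spaca4 have no bar in the 8 spermatogonial rows, whereas Zpbp has one in all 8 and Zpbp2 in 6.

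Acrv1 encodes SP-10, a protein of the acrosomal matrix whose promoter is widely used to drive transgenes in round spermatids. Its promoter had 8.01 and 4.27 in PS and 11.7 and 10.8 in RS, and no spermatogonial peak. The PS peaks were small, at percentiles 21.8 and 5.48 of called promoters, against 39.3 and 42.5 in RS. In PS replicate 2 the peak measured 254 bp, the shortest of the 10 genes in an adult library, against 1368 bp in PS replicate 1 and 2605 and 1935 bp in RS.

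The genes named for sperm acrosome-associated proteins spanned a wide range. Spaca4, a membrane-anchored protein of the Ly6 family, had 14.9 and 8.53 in PS and 23.9 and 16.2 in RS. The RS values lay above the PS values, with a wide spread in both groups (11.7 ± 4.48 and 20.0 ± 5.40, SD, n = 2). Spaca1, an acrosomal membrane protein needed to shape the acrosome, had 10.3 and 10.1 in PS and 14.5 and 10.3 in RS, and the groups overlapped. It was also called in Thy1+ WT replicate 1 alone, at 5.76 over 165 bp, and in none of the other 7 spermatogonial libraries.

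Spaca3, a lysozyme-like protein of the acrosome, had 4.58 in PS replicate 1, no peak in PS replicate 2, and 7.43 and 8.66 in RS. Spaca7, a protein of the acrosomal lumen, had 6.10 in PS replicate 1, no peak in PS replicate 2, and 8.21 and 6.49 in RS. Both were higher in each RS library than in the only PS library with a peak, and neither was called in spermatogonia. At Spaca3 the PS peak (chr11:80857742-80858027) did not overlap the highest peak of either RS library, so these values come from different sites. The highest RS percentiles of Spaca3 and Spaca7 were 32 and 25, below those of Acr, Acrbp and Spaca4.

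Izumo1, the sperm surface protein that binds its receptor Juno on the egg, followed the same order. It had 4.58 in PS replicate 1, no peak in PS replicate 2, and 10.6 and 7.57 in RS (9.07 ± 2.11, SD, n = 2). Its highest summits lay upstream of the start in all 3 libraries, at -547 bp in PS replicate 1 and at -335 and -440 bp in RS. Over the adult libraries, the highest summits of the 10 genes lay from -547 to 592 bp around the start, with a median of 170 bp downstream. Spaca3, Spaca7 and Izumo1 did not enter the main fit of RS against PS, which needed a peak in every library. With PS replicate 2 set to its lowest called value, an imputed value that itself widens the difference, Izumo1 had a log2 change of 1.22 (limma adjusted p = 0.0435). Spaca7 had 0.72 (limma adjusted p = 0.174). At Spaca3 the region read in that fit (chr11:80858327-80859421) left out the PS replicate 1 peak, so both PS values were imputed. Its change of 1.36 sets RS against imputed values alone and is a description. Without PS replicate 2, PS replicate 1 was the lone PS library, so only effect sizes are given and no call is read from them. The change was then 1.02 for Izumo1 and 0.31 for Spaca7. For Spaca3 it was 0.51, but at a different region (chr11:80857148-80858279), which holds the PS replicate 1 peak.

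Zpbp and Zpbp2, the zona pellucida binding proteins of the acrosomal matrix, stood apart from the other 8 genes by their spermatogonial peaks. Zpbp was called in all 8 spermatogonial libraries, a pattern shown by 49.6% of all symbols. It had 8.38 and 6.03 in Thy1+ WT, 6.84 and 5.58 in c-Kit+ WT, 14.7 and 5.12 in Thy1+ KO, and 6.15 and 4.66 in c-Kit+ KO. Thy1+ KO replicate 1 was the highest of these and was also the spermatogonial library with the most promoters called, 68.0%. In adult cells Zpbp reached 20.2 and 26.1 in PS and 19.6 and 17.9 in RS, above every spermatogonial library. The −log10 q of its spermatogonial peaks ranged from 3.34 in c-Kit+ KO replicate 2 to 28.7 in Thy1+ KO replicate 1, and at a −log10 q of at least 5 Zpbp was no longer called in all 8.

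Zpbp2 was called in 6 of the 8 spermatogonial libraries. It had 5.76 and 4.83 in Thy1+ WT, 12.2 and 5.12 in Thy1+ KO, and in replicate 1 of the c-Kit+ groups 5.13 in WT and 8.99 in KO, with no peak in replicate 2 of either. In adult cells it had 21.7 and 22.4 in PS and 13.7 and 9.20 in RS. Every PS value thus exceeded every RS and spermatogonial value. Zpbp2 and Acr were nearly level in PS, with means of 22.1 ± 0.465 and 23.3 ± 1.70, but in RS Zpbp2 had 11.4 ± 3.18 against 30.7 ± 1.36 for Acr (SD, n = 2). In percentiles, Zpbp2 stood at 69.5 and 66.0 in PS and at 47.3 and 34.5 in RS, and Zpbp at 64.0 and 76.7 in PS and 70.5 and 73.9 in RS.

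Between the adult stages the 7 genes called in all 4 libraries, a state of 67.1% of all symbols, fell into 3 patterns. RS values lay above PS values without overlap for 4 of them, Acr, Acrbp, Acrv1 and Spaca4, beside 7.74% of the 12020 symbols called in all 4 libraries. RS lay below PS without overlap for Zpbp and Zpbp2, beside 63.4%, and Spaca1 overlapped. Deposited values were thus lower in RS at most promoters, and for the test the median over the compared regions was subtracted from each library. A log2 change of 0 is then the change of the median-level region.

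In that fit over 21329 regions with a peak in all 4 libraries, Acrv1 had a log2 change of 1.14 and was higher in RS (SE 0.296, limma adjusted p = 0.0261). Spaca4 was higher by 1.00 (SE 0.282, limma adjusted p = 0.0353). Zpbp2 was lower, with a log2 change of -0.78 (SE 0.200, limma adjusted p = 0.0247). Of the 7 genes tested, 2 rose, beside 12.4% of all regions, and 1 fell, beside 7.79%. Their median log2 change was 0.53, beside -0.079 over all regions.

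The other 4 genes did not pass the test. The log2 change was 0.59 for Acr (SE 0.195, limma adjusted p = 0.0603), 0.53 for Acrbp (SE 0.194, limma adjusted p = 0.0832), 0.45 for Spaca1 (SE 0.196, limma adjusted p = 0.138) and -0.10 for Zpbp (SE 0.204, limma adjusted p = 0.762). Acr and Acrbp did pass with quantile normalization, at 0.70 (limma adjusted p = 0.0310) and 0.65 (limma adjusted p = 0.0367), and with the stricter peak threshold, at 0.75 (limma adjusted p = 0.0159) and 0.69 (limma adjusted p = 0.0221). Neither gene passed under the 9 other settings. Without centring the change was 0.40 for Acr (limma adjusted p = 0.211) and 0.34 for Acrbp (limma adjusted p = 0.286). Zpbp took the opposite sign with quantile normalization and with the stricter threshold, at 0.045 and 0.054. Under the latter 2 settings, as deposited without centring and in the main scaling, Acr, Acrbp, Spaca1 and Spaca4 kept a positive sign and Zpbp2 a negative one. Acrv1 kept a positive sign where it was tested, which excludes the stricter threshold.

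These calls rested on individual libraries. Without PS replicate 2 the change was 0.55 for Acrv1 (limma adjusted p = 0.177) and 0.46 for Spaca4 (limma adjusted p = 0.300), and no region of the whole fit passed. Spaca4 also lost its call without RS replicate 1, at 0.86 (limma adjusted p = 0.0958). Zpbp2 lost its call without PS replicate 1 (-0.81, limma adjusted p = 0.0845), without PS replicate 2 (-0.90, limma adjusted p = 0.163) and without RS replicate 2 (-0.67, limma adjusted p = 0.149), with a change of like size each time. In these fits the group with a library left out is a lone library, assumed to vary like the other group.

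**Figure D4:**
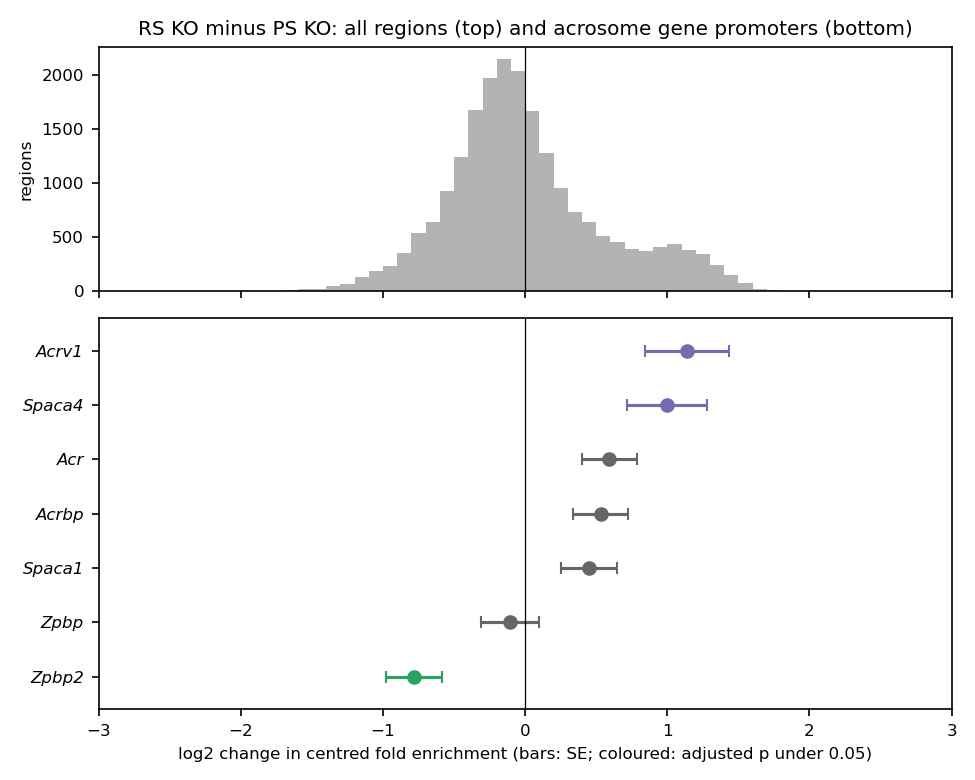
Log2 change in centred fold enrichment from PS to RS (horizontal axis): the histogram shows all 21329 regions, and the points show the 7 acrosome gene promoters tested, with SE bars, coloured where the adjusted p was under 0.05. Acrv1 and Spaca4 lie at 1.14 and 1.00 and Zpbp2 at -0.78, on opposite sides of the median region at -0.079.

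Zpbp was the only one of the 10 genes with a peak in every library of the comparisons with spermatogonia, so the other 9 did not enter those main fits. Zpbp2 entered the fits without c-Kit+ KO replicate 2 and did not pass, at 0.46 in PS against c-Kit+ KO (limma adjusted p = 0.164) and 0.45 in adult against spermatogonial KO cells (limma adjusted p = 0.172). With uncalled libraries set to their lowest called value, the change in adult against spermatogonial KO cells was 2.04 for Acr, 1.94 for Acrbp, 1.20 for Spaca4, 0.78 for Spaca1, 0.37 for Zpbp2 and 0.32 for Acrv1. Of these, all but Zpbp2 entered that fit through the adult libraries alone and all their spermatogonial values were imputed, so the changes are a description. For them the contrast is between a called and an uncalled promoter. At Acr and Acrbp the lowest adult values, 22.1 and 21.4, stand beside a lowest called value of at most 3.84 in any spermatogonial library. At Acrv1 the lowest adult value, 4.27, lies near that limit.

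In PS against c-Kit+ KO spermatogonia Zpbp rose, with a log2 change of 1.02 (SE 0.197, limma adjusted p = 0.00196), beside 6.83% of 12501 regions that were higher and 25.1% that were lower. Without c-Kit+ KO replicate 2 the change was 1.06 (limma adjusted p = 0.0778), and no region of the whole fit passed. In PS and RS together against both KO spermatogonial groups Zpbp was higher by 0.93 (SE 0.167, limma adjusted p = 0.00139), beside 9.85% of 10287 regions higher and 22.4% lower. It passed under the 14 other settings in which it was tested. With only peaks of a −log10 q of at least 5 it was not tested. The PS KO libraries and the c-Kit+ KO libraries enter both fits, and the PS KO libraries also enter the fit of RS against PS. Without centring the median region itself was higher by 0.91 in PS than in c-Kit+ KO and by 0.56 in adult cells than in spermatogonia, and Zpbp by 2.10 and 1.6.

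Knockout of Scml2 was compared with WT in spermatogonia, with stage as a covariate. Zpbp had a log2 change of -0.23 in KO (SE 0.163, limma adjusted p = 0.964), and without centring of 0.040, so its sign depended on the scaling. As deposited, KO and WT libraries overlapped in both stages. On the centred log2 scale of the test they overlapped in Thy1+ cells. Both c-Kit+ KO libraries (-0.82 and -0.81) lay below both c-Kit+ WT libraries (-0.58 and -0.53) on that scale. The share of all regions separated in this way was not counted, so no KO effect can be read from it. None of 9585 regions passed (0% higher and 0% lower by limma), and 502 had an unadjusted p under 0.05. The difference of the KO effect between c-Kit+ and Thy1+ cells was 0.046 for Zpbp (SE 0.334, limma adjusted p = 0.998). Zpbp2 had a change of 0.21 (SE 0.199, limma adjusted p = 0.992) when its 2 uncalled libraries, 1 WT and 1 KO, were set to their lowest called value. Between c-Kit+ and Thy1+ spermatogonia Zpbp had a log2 change of -0.18 (SE 0.163, limma adjusted p = 0.674), beside 0.803% of regions higher and 0.282% lower in c-Kit+ cells; both fits use the same 8 libraries. The remaining 8 genes gave no genotype comparison, since Spaca1 had 1 spermatogonial peak, in WT, and the other 7 had none.

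Signal outside the promoters was sparse and low. The 53 other peaks ranged from 3.05 to 9.11 in fold enrichment, with a median of 4.27, and from 145 to 1482 bp in length; 45 lay in adult libraries and 8 in spermatogonial ones. Spaca1, Spaca4 and Zpbp2 had none, and Spaca7 had 19, the farthest of them nearer to the coding gene Sox1 than to Spaca7 in the RefSeq annotation. Only 16 of the 53 kept a −log10 q of at least 5. The peaks merged into 28 regions, of which 25 were apart from a promoter peak. Of these 25, 17 were called in a single library and none in all 4 adult libraries, so none entered a fit between adult stages.

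The 4 regions called in at least 3 libraries lay upstream of Spaca7, Zpbp and Spaca3. A region 85.8 kb upstream of Spaca7 (chr8:12486806-12487643) was called in 5 of 8 spermatogonial libraries, with 5.24 and 5.43 in Thy1+ WT, 5.70 in c-Kit+ WT replicate 1, and 9.11 and 6.40 in Thy1+ KO, and in RS replicate 1 at 3.13. It was thus called in all 4 Thy1+ libraries, in which the Spaca7 promoter had no peak, and both were called in RS replicate 1. The share of all regions with this pattern was not counted. No gene of the RefSeq annotation overlaps this region. A region 70.2 kb upstream of Spaca7 (chr8:12502116-12503643) was called only in adult cells, at 5.72 in PS replicate 1 and 7.82 and 4.33 in RS, the same libraries as the Spaca7 promoter. The region upstream of Zpbp (chr11:11463450-11464827, 4.96 in PS replicate 1 and 6.65 and 5.41 in RS) overlaps Spata48. The region upstream of Spaca3 (chr11:80853249-80853785) had 3.81 in PS replicate 1 and 6.26 and 4.33 in RS, and it overlaps 4930507D10Rik. All 3 of these adult regions lacked a peak in PS replicate 2. Assignment to these genes is by nearness in the deposited tables and shows no regulatory link.

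Other acrosome and fertilisation genes were read from a list of 52, also chosen with earlier results of these data known. Of these, 45 had a start of their own. Both RS libraries had a promoter peak at 41 of the 45, beside 71.2% of all symbols, and both PS libraries at 35, beside 72.2%. In at least 1 spermatogonial library 20 were called, beside 70.9%, and in all 8 libraries 12, beside 49.6%. The adult-only pattern held for 16 of the 45, beside 5.82%. Of 35 tested between RS and PS, 9 rose, beside 12.4% of all regions, and none fell, beside 7.79%, with a median log2 change of 0.074. Without centring 8 rose and 3 fell, and with uncalled libraries set to their lowest called value 5 of 42 rose and none fell. Actl7a and Actl7b, actin-like proteins of the sperm head that are encoded side by side, share 1 peak, so the 9 genes stand for 8 regions. Without PS replicate 2 none of 39 tested rose, without RS replicate 1 the count was 5 and without RS replicate 2 it was 4.

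The 3 largest rises were at Prss55, Fam209 and Lyzl1. Prss55, a serine protease, had 9.15 and 3.73 in PS and 14.1 and 11.9 in RS (log2 change 1.34, SE 0.366, limma adjusted p = 0.0312). Fam209, a partner of Dpy19l2 at the nuclear envelope under the acrosome, had 19.1 and 9.06 in PS and 30.1 and 28.1 in RS (1.34, SE 0.326, limma adjusted p = 0.0212). Lyzl1, a lysozyme-like protein, had 4.19 and 4.27 in PS and 11 and 7.57 in RS (1.30, SE 0.197, limma adjusted p = 0.00788). RS lay above PS without overlap at each, beside 7.74% of symbols called in all 4 libraries, but these 3 were picked for their rise between the same libraries. All 3 lost their call without PS replicate 2, with log2 changes of 0.56, 0.67 and 1.17.

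The promoters whose profile over the 12 libraries was nearest to the median profile of the 10 genes were 4930448C13Rik, Dnah10, Spag8, 4930552P12Rik and 1700016G22Rik. Their mean absolute difference from it was 0.0252 to 0.0410 on the log2 scale, with uncalled libraries set to a fold enrichment of 1. The acrosome genes themselves lay farther from it, from 0.148 for Spaca4 and 0.171 for Acrv1 to 1.55 for Zpbp2 and 2.12 for Zpbp. Like the median profile, which had 12.4 and 9.30 in PS and 14.1 and 10.5 in RS, all 5 were uncalled in the 8 spermatogonial libraries. Dnah10, an axonemal dynein heavy chain, had 11.4 and 8.53 in PS and 13.3 and 10.8 in RS.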

How the data were processed

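The data were 1 peak table per library, 12 H3K27ac and 16 input, with groups and replicate numbers from the sample titles. Peaks were called per library. Per the submitters' processing notes, Bowtie, MACS2 and mm10 were used; versions and filters are not given in the sources used here. Per the file headers, the lines held a deposited signal height (pileup) at a summit, a deposited −log10 p and −log10 q, and a deposited fold enrichment, which is a ratio. In the values, fold enrichment was (height + 1) divided by (background + 1) with 1 background per library, so no input or local correction entered it.

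Each gene was read at its highest summit in peaks within 1 kb of its listed start. For tests, overlapping peaks (1 bp or more) of the libraries compared were merged, regions with a peak in every library were kept, and log2 of the highest fold enrichment, centred on each library's median over those regions, was fitted with limma 3.58.1 in R 4.3.3, with Benjamini-Hochberg adjustment over all regions and a threshold of 0.05. The other scalings, peak thresholds, overlap rules, promoter windows and left-out libraries are listed in the closing section. Tables were handled in Python 3.11.15 with pandas 2.3.3 and numpy 2.4.6, and figures were drawn with matplotlib 3.10.9. The fit was tested on simulated data of the RS against PS comparison with 21329 regions: of 50 regions changed by a log2 of 1, 43 were called, and of 50 changed by 2, 50 were called, beside 11 of 21129 unchanged regions.

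The 10 genes, the list of other acrosome genes and the marker lists were chosen with earlier results of these data known. Beyond the 10 genes, the text names the 5 symbols nearest to their median profile, up to 3 genes with the largest rise and 3 with the largest fall among those of the other list past the threshold, and symbols whose start shares a promoter peak. Replicate numbers recur in all groups, but nothing says that they pair libraries. Columns of per-sample values left unused: 0.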

Additional observations from a re-analysis of the deposited data

How the results depend on the processing

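The calls rest on 2 libraries a group and on heights of few reads; peak presence depends on depth, which is unknown, and weak promoters (Acrv1, Spaca3, Spaca7 and Izumo1 in PS) lie near the calling limit. The count of regions called between RS and PS was 4309, and 1982 with a −log10 q of at least 5, 7022 with uncalled libraries set at the lowest value of each, and 0 to 3402 with a library left out (0 without PS replicate 2). The split of higher and lower was 2648 and 1661, and 2220 and 3630 without centring, 1518 and 464 with the stricter q, and 3126 and 3896 with uncalled libraries set. For PS against c-Kit+ KO the count was 3992, and 784 with quantile normalization (386 higher, 398 lower), 8940 without centring (8841 higher, 99 lower), 2013 with the stricter q, 2770 with uncalled libraries set (1394 higher, 1376 lower) and 0 to 4564 with a library left out (0 without c-Kit+ KO replicate 2); the main split was 854 higher and 3138 lower. For adult KO against spermatogonial KO it was 3322 (1013 higher, 2309 lower), and 9575 with uncalled libraries set (1738 higher, 7837 lower) and 2638 to 3329 with a library left out; without centring 3783 were higher and 61 lower, and with quantile normalization 1336 and 1352. For c-Kit+ against Thy1+ it was 104, and 0 without centring, 18 with the stricter q, 805 with uncalled libraries set, 160 without regions that overlap an input peak, and 9 to 178 with a library left out. KO against WT gave 0 in all settings. The causes of these shifts were not tested; the stricter q tests fewer regions and the setting with uncalled libraries more.

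In fits with a replicate block the counts were 4456, 3705, 3151, 0 and 206 (the last for c-Kit+ against Thy1+), and no call of an acrosome gene changed. Deviations of same-numbered libraries correlated at -0.008 to 0.159, so the numbers were not taken to pair them.

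Among the single genes, Zpbp reversed sign between RS and PS with quantile normalization (0.045) and the stricter q (0.054), and between KO and WT without centring (0.040). Where uncalled libraries took their lowest value, the RS against PS calls of Acrv1 (0.95, limma adjusted p = 0.102) and Spaca4 (0.80, limma adjusted p = 0.128) were lost. Also lost was the call of Zpbp in PS against c-Kit+ KO (1.33, limma adjusted p = 0.0549). Izumo1 (1.22), absent from the main fit, passed with an imputed value for PS replicate 2. Spaca3 (1.36), also absent from it, was read against imputed PS values alone. Zpbp2 missed the threshold with quantile normalization (-0.68, limma adjusted p = 0.0516), and Spaca1 passed with the stricter q (0.61, limma adjusted p = 0.0460). The adult-only pattern held for 4 to 7 genes with a library left out (7 without PS replicate 2, 5 without Thy1+ WT replicate 1, when Spaca1 joins), both PS libraries for 7 to 10, and the 53 other peaks fell to 16 with the stricter q. Promoter windows of 500 bp or 2 kb gave the same genes in each pattern.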

Other observations

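1 input peak was assigned to one of the 10 genes. It lay upstream of Spaca7 (chr8:12531330-12531549) in PS WT replicate 1, with a fold enrichment of 5.43, and overlapped none of the H3K27ac regions of Spaca7. Among promoters called in adult libraries, the acrosome genes had a median fold enrichment of 12.6 over 10 genes in PS replicate 1, of 22.4 over 7 in PS replicate 2, of 14.1 over 10 in RS replicate 1 and of 10.5 over 10 in RS replicate 2. Over all called promoters the medians were 16.4, 17.6, 14.5 and 12.4.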
